A study of Mus musculus with 9 samples.

Results

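Mutations in a large and varied set of genes cause inherited hearing loss, and many of these genes act away from the mechanically sensitive core of the hair bundle. The expression of 37 hereditary deafness genes, grouped as outside that core, was described in mouse cochlea across age and calorie restriction. Some of the 37, such as Whrn, Tmie and Myo3a, still encode proteins of the bundle. The 37 genes were taken by name from genes known for hereditary deafness, and measured levels had no part in the rule. A probe set, the array's unit of measurement, was counted as a member where its platform annotation gave only the symbol of 1 of these genes. This held for 61 of the 45037 probe sets, covering 32 of the 37 genes. Pdzd7, Ush1g, Cib2, Grxcr1 and Loxhd1 had no such probe set and were not analysed here. After probe sets under the 40th percentile of mean signal were set aside, 34 of the 61 probe sets remained, for 24 genes, among 27022 probe sets in all. The other 8 genes (Diaph3, Espn, Myo3a, Clrn1, Tmie, Gipc3, Ildr1 and P2rx2) were read only below that level and are described last.

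All animals were male C57BL/6 mice kept singly, a strain known for early hearing loss. Young controls (YC) were 4 months old and older controls (MC) 15 months old, both fed 84 kcal per week. Calorie-restricted mice (CR) were 15 months old and had received 62 kcal per week since the age of 2 months. Each group had 3 samples, each a pool of 4 cochleae from 2 mice, hybridised to an array of its own, so errors and p-values describe the spread between pools. Whole cochlea is a mixture of tissues, and in such a sample fewer cells of a type and less RNA per cell cannot be told apart.

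Hearing depends on several linked systems, and a defect in any of them can cause deafness. Hair cells convert sound through an actin-filled bundle anchored in the cuticular plate, tight junctions keep endolymph apart from perilymph, and the stria vascularis, fibrocytes and outer sulcus set the ionic make-up of endolymph. Transcription regulators build and maintain these cell types, and enzymes and growth factors of wide use are needed for their survival. The members spread over all of these systems, and the results are ordered by them.

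The arrays differed in a way that the groups did not fully explain. By the median of the deposited signal they fell at the largest gap into 4 low-median arrays (526.8 to 626.6; YC 1 and all CR) and 5 high-median arrays (842.4 to 1103.9; YC 2, YC 3 and all MC). CR and MC therefore shared no class, and their comparison was repeated with array class as a term that only the young controls inform. That term is set by YC 1 against YC 2 and YC 3. Values with this term and those of CR minus YC 1 both rest on the single array YC 1, so they are not separate checks. CR and YC 1 also differ in age. The values below are log2(signal + 16) after quantile normalization, and comparisons used limma across the 27022 probe sets with Benjamini-Hochberg adjustment and a threshold of 0.05. The 25 skeletal muscle markers were lower in CR than in MC for 25 of 25 genes, with a median log2 difference of -2.09, and 17 of 18 brain markers were higher, with a median of 1.25. Of 20 hair cell markers only 9 passed the signal filter, and Pou4f3, Gfi1, Slc26a5, Ocm, Slc17a8, Chrna9, Chrna10, Lhfpl5, Strc, Ptprq and Cdh23 lay below it.

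The promoters of 5 members are shown because the CR arrays of these genes lay apart from both other groups, on the same side of each, with an unadjusted p under 0.05 against MC. Each is the 250 bases before the gene's start in RefSeq, build GRCm38.p6, printed from 5′ to 3′ on the gene's strand. They are Myh14 (chr7:44670844-44671093, minus strand), Whrn (chr4:63495992-63496241, minus strand), Slc26a4 (chr12:31559985-31560234, minus strand), Tbc1d24 (chr17:24205563-24205812, minus strand, the more upstream of its 2 windows) and Smpx (chrX:157698723-157698972, plus strand). Capitals mark matches, on either strand, to an E-box (CANNTG), a TATA box (TATAAA) or a GC box (GGGCGG). A MEF2 site and a CArG box, both sites of muscle gene promoters, were also searched by name.
Myh14: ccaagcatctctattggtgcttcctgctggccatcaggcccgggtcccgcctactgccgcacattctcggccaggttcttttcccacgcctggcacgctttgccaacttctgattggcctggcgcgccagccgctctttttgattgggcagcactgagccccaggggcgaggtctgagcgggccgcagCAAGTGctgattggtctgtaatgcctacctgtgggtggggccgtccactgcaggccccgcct
Whrn: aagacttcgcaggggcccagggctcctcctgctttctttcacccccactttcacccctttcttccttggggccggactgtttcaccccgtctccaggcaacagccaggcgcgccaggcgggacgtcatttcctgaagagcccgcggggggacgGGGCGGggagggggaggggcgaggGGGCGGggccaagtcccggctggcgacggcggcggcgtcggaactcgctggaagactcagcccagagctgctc
Slc26a4: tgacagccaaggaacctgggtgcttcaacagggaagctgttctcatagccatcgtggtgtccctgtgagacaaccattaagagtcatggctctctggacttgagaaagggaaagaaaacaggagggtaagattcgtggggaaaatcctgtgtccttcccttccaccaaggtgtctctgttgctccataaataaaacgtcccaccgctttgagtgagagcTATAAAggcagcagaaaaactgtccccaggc
Tbc1d24: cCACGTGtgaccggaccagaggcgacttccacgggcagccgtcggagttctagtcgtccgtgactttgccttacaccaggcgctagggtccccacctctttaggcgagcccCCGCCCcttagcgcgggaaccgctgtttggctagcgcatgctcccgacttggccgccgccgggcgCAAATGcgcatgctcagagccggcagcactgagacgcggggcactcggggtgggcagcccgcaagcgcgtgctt
Smpx: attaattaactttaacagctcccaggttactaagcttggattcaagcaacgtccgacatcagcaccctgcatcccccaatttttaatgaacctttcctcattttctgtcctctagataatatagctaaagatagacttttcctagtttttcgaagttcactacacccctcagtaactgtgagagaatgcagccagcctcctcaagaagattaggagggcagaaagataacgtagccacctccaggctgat
Of the 5, Slc26a4 alone held TATAAA, at position -31 counted from the start, a match found in 12.4% of 32851 windows of the same length. The GC box matches lay at positions -97 and -73 in Whrn and -139 in Tbc1d24, and 32.7% of all windows held such a match. E-box matches lay at position -62 in Myh14 and at -249 and -74 in Tbc1d24, against 66.2% of all windows. No MEF2 site (2.92% of windows) or CArG box (1.47%) was found in any of the 5, and Smpx held none of the motifs. The GC content was 69.6% in Whrn, 68.0% in Tbc1d24, 63.6% in Myh14, 49.6% in Slc26a4 and 42.8% in Smpx, beside a median of 52.4% over all windows. No searched motif was shared by all of the genes that were lower or by both that were higher.

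The first comparison, of MC with YC, asked how the members differ between 4 and 15 months. None of the 34 member probe sets passed the threshold, and none had an unadjusted p under 0.05 or groups without overlap. Over all probe sets these shares were 0% (adjusted), 3.39% (unadjusted) and 5.88% (no overlap). The median log2 difference was 0.12 over the members and 0.02 over all probe sets. By the brightest probe set of each gene, 18 of 24 genes were nominally higher in MC after quantile normalization. The count was 16 in the deposited table as scaled and 9 when arrays were centred on their medians. Over the 34 probe sets, the counts under these 3 scalings were 22, 21 and 12. The shares of all probe sets that were higher were 52.3%, 56.1% and 35.7%, so the direction moved with the scaling for all probe sets too.

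The second comparison, of CR with MC, asked what long-term calorie restriction alters at 15 months. No member probe set passed the threshold, which 25 of all probe sets did (0.0925%), and the lowest adjusted p of a member was 0.146. Without YC 2, Smpx and Whrn passed (adjusted p = 0.0427 and 0.0436), beside 1040 of all probe sets. The count of all was 238 without YC 1, 49 without MC 2, 2 without CR 1 and 0 without CR 2, CR 3, MC 1 or MC 3. An unadjusted p under 0.05 was found for 6 of 34 member probe sets (17.6%, against 18.5% of all), 2 higher (8.99% of all were higher) and 4 lower (9.54% of all). The CR and MC arrays did not overlap for 12 of 34 (35.3%, against 37.8% of all). Of these, 2 were higher in CR, against 19.5% of all, and 10 lower, against 18.2%. The median log2 difference was -0.14 over the members and 0.08 over all probe sets. By gene, 17 of 24 were nominally lower in CR, but 13 were with the table as scaled and 7 with arrays centred on their medians. The median of all probe sets was 0.08 after quantile normalization, 0.58 when centred and -0.04 as scaled. Relative to it, the median of the 34 member probe sets was -0.22 after quantile normalization and -0.12 under both other scalings. Over the 24 genes, each by its brightest probe set, it was -0.26 after quantile normalization and -0.04 under both other scalings.

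Against YC, which shares its arrays with the age comparison, CR gave no call among the members (0% of all probe sets). Without YC 1, 354 of all probe sets passed and still no member. The lowest adjusted p of a member was 0.457, and 7 of 34 (20.6%) had an unadjusted p under 0.05 against 10.8% of all. These were 3 higher (5.21% of all) and 4 lower (5.56% of all). The groups did not overlap for 8 of 34 (23.5%), against 20.5% of all, with 3 higher (11.4% of all) and 5 lower (9.10% of all). The moderated F test over the 3 groups called no member, as it did for 0% of all probe sets. The total shares of unadjusted p and of groups without overlap were thus near the background against MC, and the former was above it against YC. By direction, 10 of the 12 member probe sets without overlap against MC were lower after quantile normalization. Over all probe sets 19.5% were higher and 18.2% lower without overlap.

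**Figure D1:**
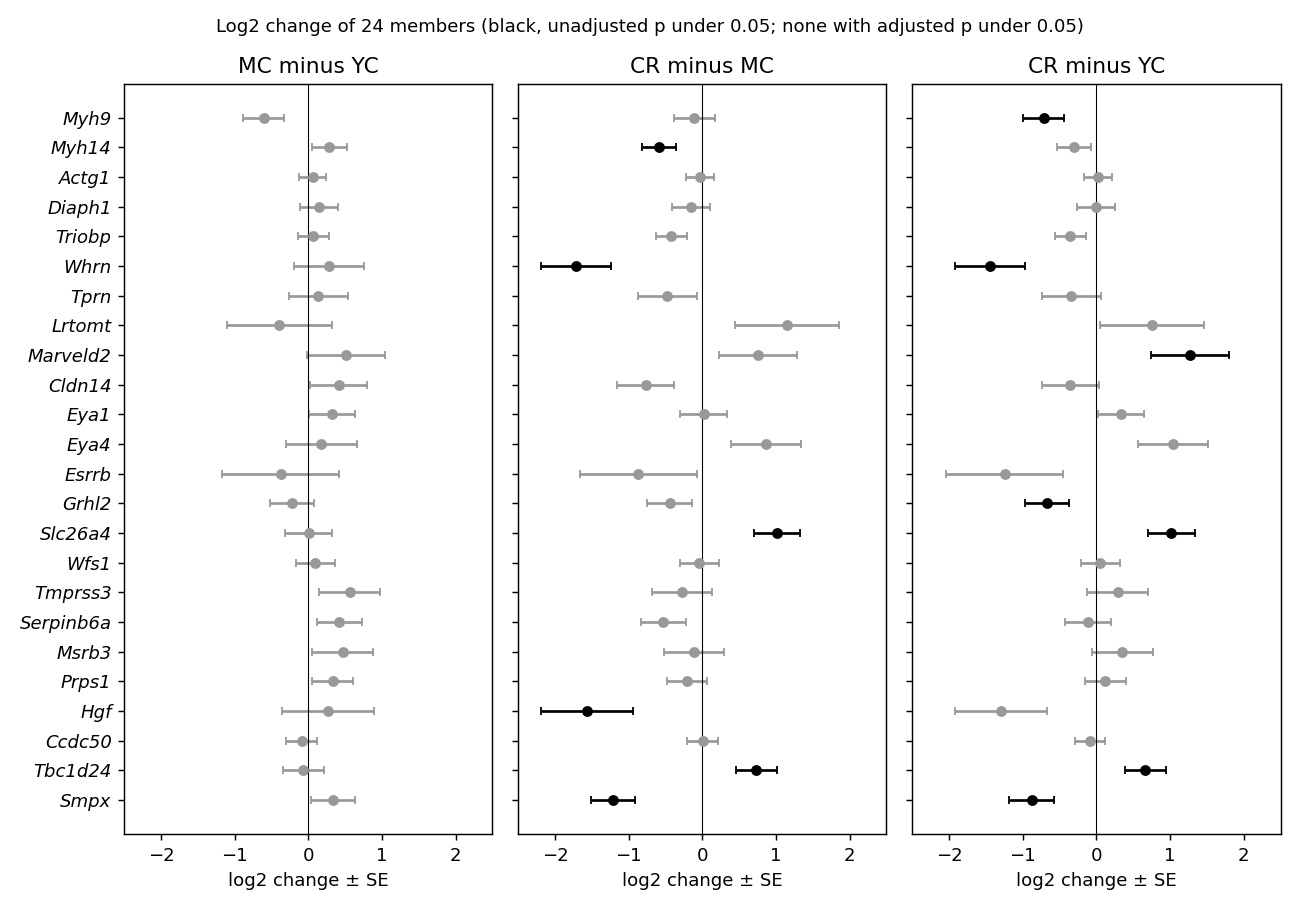
Log2 difference of the 24 members (brightest probe set of each gene), with its standard error, in 3 panels (age, then CR against MC, then CR against YC), on log2(signal + 16) after quantile normalization; black points have an unadjusted p under 0.05. In the middle panel Whrn (-1.72), Hgf (-1.57) and Smpx (-1.21) lie farthest to the left among the black points and Slc26a4 (1.01) farthest to the right, and none passed the adjusted threshold.

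**Figure D2:**
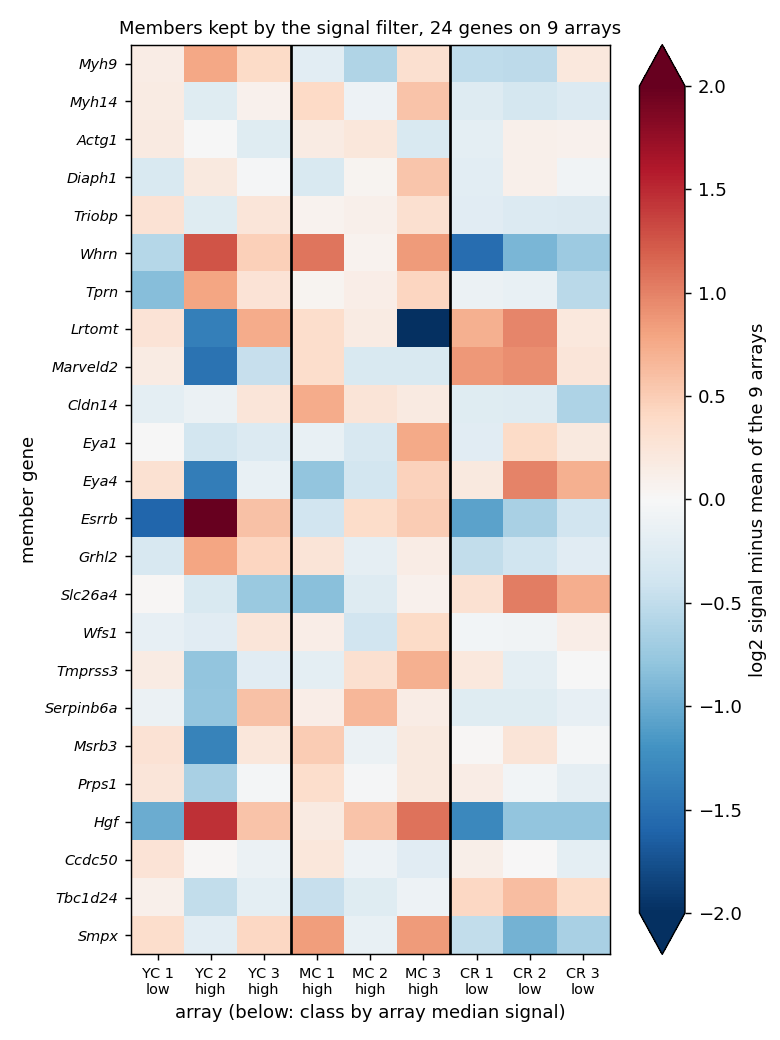
Log2 signal of the 24 members on each of the 9 arrays, as the difference from that gene's mean over the arrays, with the array class by median signal under each array name. Hgf, Whrn and Esrrb are low on YC 1 as well as on the CR arrays, while Smpx is lowest on the CR arrays and near or above its mean on YC 1.

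Among the actin and motor genes, 5 of 8 were kept by the filter. Myh14 encodes a non-muscle myosin II heavy chain found in many cochlear epithelia. It read 12.43, 12.01 and 12.35 in YC 1 to 3, 12.66, 12.16 and 12.83 in MC 1 to 3, and 12.00, 11.91 and 11.98 in CR 1 to 3. Every CR array was below every MC and YC array, by a narrow margin from YC 2. Group means were 12.27 ± 0.22 in YC, 12.55 ± 0.35 in MC, 11.96 ± 0.048 in CR (SD, n = 3). CR was 1.5-fold lower than MC (log2 difference -0.59 ± 0.23 SE, limma adjusted p = 0.231). The sign turned (0.28) when arrays were centred on their medians, but the median of all probe sets was then 0.58. With array class as a term the Myh14 difference was -0.84 ± 0.41, and within the low-median class CR minus YC 1 was -0.47.

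Myh9 encodes the related myosin whose mutations cause a syndrome with deafness and large platelets. Its brightest probe set read 14.93, 15.55 and 15.16 in YC 1 to 3, 14.56, 14.18 and 15.09 in MC 1 to 3, and 14.27, 14.25 and 14.99 in CR 1 to 3. MC and CR were mostly below YC, but MC 3 and CR 3 lay within the YC range. CR was 1.64-fold lower than YC (-0.71 ± 0.28, limma adjusted p = 0.457), and MC minus YC was -0.60 ± 0.28 (adjusted p = 1). The 3 other kept probe sets of Myh9 gave MC minus YC differences of -0.05, 0.13 and -0.06, so the lower level in MC was not shared by them. Their CR minus YC differences were -0.21, 0.24 and -0.23, each within its SE. With arrays centred on their medians, CR minus YC of the brightest probe set was -0.02, where the median of all probe sets was 0.39.

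Actg1, the gamma actin of the cytoplasm and of stereocilia, read 16.35, 16.17 and 15.93 in YC 1 to 3, 16.34, 16.41 and 15.87 in MC 1 to 3, and 15.98, 16.27 and 16.26 in CR 1 to 3. The groups overlapped throughout, and no contrast exceeded 0.06 in size (SE 0.19). Its probe set carries a suffix that marks possible detection of related transcripts. Triobp, which bundles the actin rootlets of stereocilia, read 12.67, 12.13 and 12.62 in YC 1 to 3, 12.45, 12.48 and 12.69 in MC 1 to 3, and 12.16, 12.11 and 12.09 in CR 1 to 3. Its CR arrays lay close together and below all MC arrays, with a difference of -0.42 ± 0.21 (limma adjusted p = 0.301) that turned to 0.46 with arrays centred on their medians. Diaph1, a formin that drives actin filament growth, read 11.96, 12.47 and 12.25 in YC 1 to 3, 11.98, 12.33 and 12.83 in MC 1 to 3, and 12.06, 12.38 and 12.20 in CR 1 to 3. Its groups overlapped, and the differences were 0.15 for MC minus YC and -0.16 for CR minus MC (SE 0.26). All 5 kept genes of this role were nominally lower in CR than in MC, while 54.7% of all probe sets were higher. With arrays centred on their medians 5 of 5 were higher, beside 71.7% of all, whose median was then 0.58. With the table as scaled 3 were higher, beside 48.2% of all.

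Of the 11 genes for bundle scaffolds, links and transduction accessories, Whrn, Tprn and Lrtomt were kept. Whrn encodes whirlin, a scaffold of the stereocilium tip and of the ankle links that is mutated in Usher syndrome. It read 10.19, 12.03 and 11.25 in YC 1 to 3, 11.85, 10.84 and 11.62 in MC 1 to 3, and 9.24, 9.86 and 10.05 in CR 1 to 3. The CR arrays were the 3 lowest of the 9, and YC 1 came next. Group means were 11.16 ± 0.92 in YC, 11.44 ± 0.53 in MC, 9.72 ± 0.42 in CR (SD, n = 3). CR was 3.29-fold lower than MC (-1.72 ± 0.47 SE, limma adjusted p = 0.163), and 2.71-fold lower than YC (-1.44 ± 0.47, adjusted p = 0.457). With array class as a term the CR minus MC difference was -0.27 ± 0.68, and within the low-median class CR minus YC 1 was -0.48. Without YC 1, CR minus YC was -1.92 (adjusted p = 0.0539).

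The summed signal of the 9 kept hair cell markers was also lower in CR, at 56217 to 62990, than in MC, at 89830 to 126649, or YC, at 70015 to 128039. Its part in the Whrn values was not tested, and the median log2 difference of those markers was -0.54, with 4 of 9 higher and 5 lower. Their median was 0.39, with 5 higher and 4 lower, once array class was a term. The markers' most specific members lay below the filter, as listed above. The 9 kept were Myo7a, Myo6, Otof, Atoh1, Calb1, Calb2, Tmc1, Rbm24 and Pvalb. Calb1 was also a brain marker here and Calb2 a marker of spiral ganglion neurons, so the sum was not specific to hair cells. The part of muscle RNA in it, for example through Pvalb and Rbm24, was not tested. Of the other 2 kept genes of this role, Tprn, which encodes taperin at the base of stereocilia, had a CR minus MC difference of -0.48 ± 0.40. The probe set matched to Lrtomt is annotated with the newer symbol Lrrc51 and does not read the neighbouring Tomt gene, which encodes the transmembrane methyltransferase. It was 1.15 ± 0.71 higher in CR (limma adjusted p = 0.39).

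Marveld2 and Cldn14 represent the tight junctions, where tricellulin and claudin-14 seal contacts between cells of the organ of Corti. Marveld2, the tricellulin gene, read 9.40, 7.76 and 8.78 in YC 1 to 3, 9.59, 8.94 and 8.94 in MC 1 to 3, and 10.10, 10.16 and 9.48 in CR 1 to 3. CR 1 and CR 2 were above every other array, and CR 3 was below MC 1, so CR and MC overlapped. CR was 1.27 ± 0.53 higher than YC on the log2 scale (limma adjusted p = 0.459), with no overlap, and 0.76 ± 0.53 higher than MC. The YC mean of 8.65 lay below the filter's minimum of 8.95, which Marveld2 passed through MC and CR, so its size against YC is less certain. Within the low-median class CR lay 0.52 above YC 1. Cldn14 went the other way, with CR below every MC and YC array and a CR minus MC difference of -0.77 ± 0.39 (limma adjusted p = 0.306). The CR minus MC difference of Marveld2 turned to -0.37 with array class as a term, and both junction genes were then lower in CR.

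The 4 transcription regulators were all kept. Grhl2, a regulator of epithelial identity, read 11.28, 12.40 and 12.03 in YC 1 to 3, 11.86, 11.42 and 11.75 in MC 1 to 3, and 11.11, 11.21 and 11.38 in CR 1 to 3. The CR arrays were low, though YC 1 lay among them. CR was 1.59-fold lower than YC (-0.67 ± 0.30, limma adjusted p = 0.462), and within the low-median class the difference from YC 1 was -0.05. A fainter probe set of Grhl2 gave a CR minus MC difference of -0.85 ± 0.47, the same direction as the -0.45 of the brightest. The latter turned to 0.49 with array class as a term. It was 0.24 with arrays centred on their medians, where the median of all probe sets was 0.58. Eya4, a coactivator whose loss causes late-onset hearing loss, was 0.87 ± 0.48 higher in CR than in MC and 1.04 ± 0.48 higher than in YC (limma adjusted p = 0.343 and 0.462). Its fainter probe sets, all below the filter, did not all share this direction. Eya1, needed for inner ear development, differed by 0.02 ± 0.31 between CR and MC. Esrrb, an orphan nuclear receptor of marginal cells, had the widest spread within YC of the kept members: its YC arrays read 10.10, 14.33 and 12.28, and CR minus MC was -0.87 ± 0.80. Its second probe set gave -0.11 ± 0.37.

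**Figure D3:**
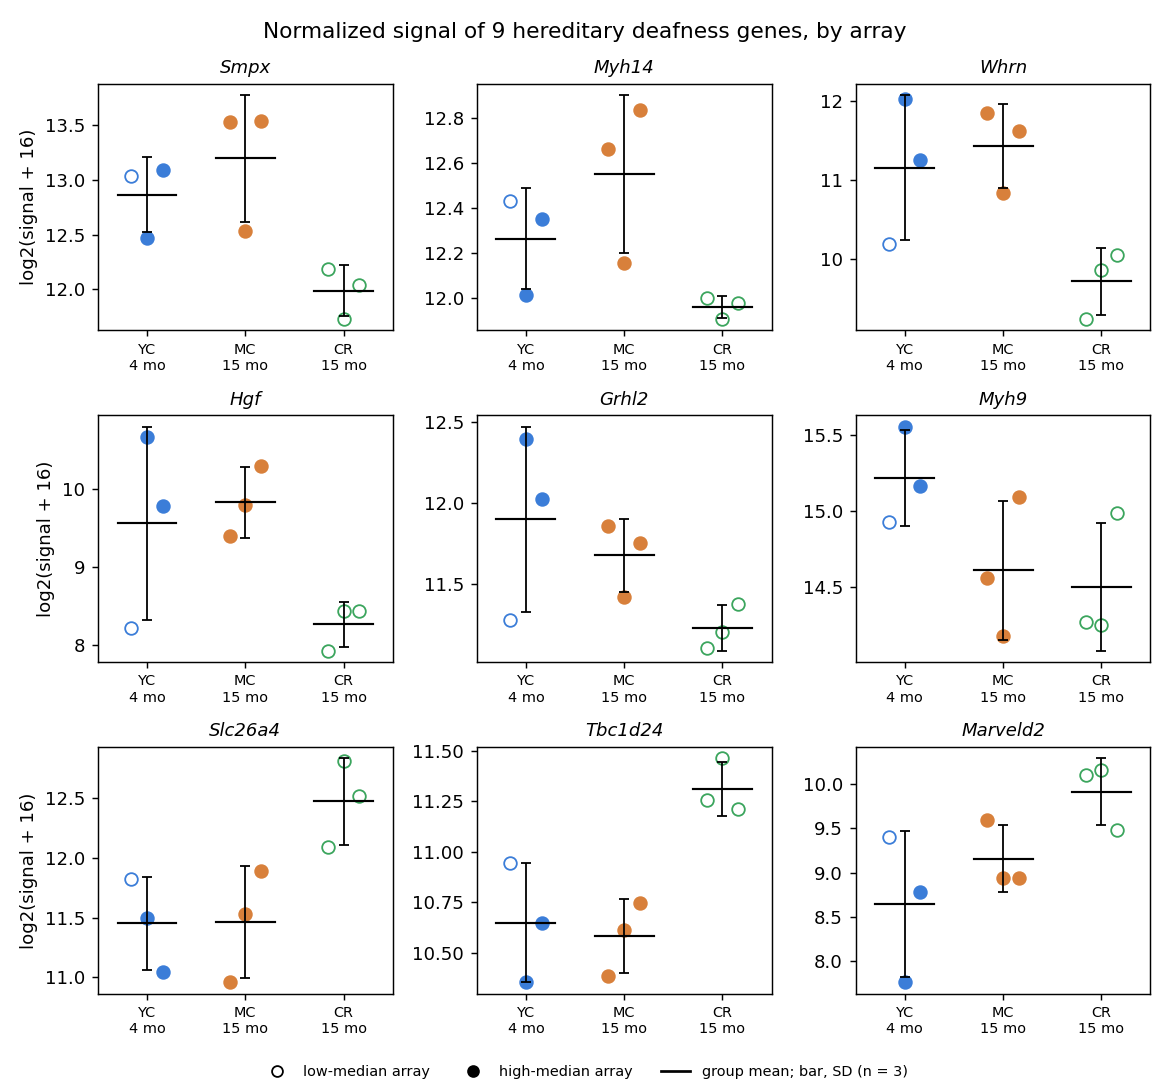
Log2(signal + 16) after quantile normalization of 9 members by array, for young controls (YC, 4 months), older controls (MC, 15 months) and calorie-restricted mice (CR, 15 months); each point is 1 pooled sample, open for low-median and filled for high-median arrays, with the group mean as a line and a bar for the SD (n = 3). Smpx, Whrn and Myh14 were lower on all 3 CR arrays than on every other array, and Slc26a4 and Tbc1d24 were higher.

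Of the 5 genes of ion transport and secretion, 4 were kept. Slc26a4 encodes pendrin, the anion exchanger that secretes bicarbonate into endolymph in the outer sulcus and spindle cells. Slc26a4 read 11.82, 11.49 and 11.05 in YC 1 to 3, 10.96, 11.53 and 11.89 in MC 1 to 3, and 12.09, 12.81 and 12.51 in CR 1 to 3. All CR arrays were above all other arrays, with MC 3 and YC 1 next. Group means were 11.45 ± 0.39 in YC, 11.46 ± 0.47 in MC, 12.47 ± 0.36 in CR (SD, n = 3), and MC minus YC was 0.01 ± 0.32. CR was 2.02-fold higher than MC (1.01 ± 0.32 SE, limma adjusted p = 0.184) and 2.03-fold higher than YC (1.02 ± 0.32, adjusted p = 0.457). The sign was kept under each of the 21 alternatives tried, from 0.46 with array class as a term (0.46 ± 0.55) to 1.83. The 1.83 came with arrays centred on their medians, where the median of all probe sets was 0.58. Within the low-median class CR lay 0.65 above YC 1.

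Markers of the cells around the cochlear duct were mostly higher in CR too in the fit without array class. The 10 fibrocyte markers were all nominally higher in CR than in MC, with a median of 0.98, as were 8 of 11 kept stria vascularis markers (0.59) and 9 of 12 supporting cell markers (0.76). The medians were 0.34 for fibrocytes, 0.26 for the stria and -0.013 for supporting cells (6 higher, 6 lower) with array class as a term. Their summed signals in CR were 192150 to 270792 for fibrocytes, against 143274 to 175020 in MC and 120286 to 165774 in YC. For the stria they were 63253 to 75456 in CR, 48773 to 50946 in MC and 43756 to 60612 in YC. For supporting cells they were 65525 to 86200 in CR, 39000 to 46262 in MC and 34211 to 51768 in YC. These marker lists are not separate: Gjb2 and Gjb6 were in both the fibrocyte and the supporting cell list, and the stria marker Esrrb is a member. Kcnj10, Gjb6 and Cldn11 recur in the gene lists set beside the members below. The part of these markers in the Slc26a4 values was not tested.

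The other kept genes of this role had smaller differences. Serpinb6a, a protease inhibitor of hair cells and supporting cells, read 13.02, 12.35 and 13.71 in YC 1 to 3, 13.26, 13.80 and 13.28 in MC 1 to 3, and 12.88, 12.89 and 12.97 in CR 1 to 3. Its CR arrays lay below all MC arrays but within the YC range, with a CR minus MC difference of -0.53 ± 0.31 (limma adjusted p = 0.36) that turned to 0.45 with arrays centred on their medians. The median of all probe sets was 0.58 with that centring. Wfs1, an endoplasmic reticulum protein mutated in low-frequency hearing loss, differed by 0.09 for MC minus YC and -0.04 for CR minus MC (SE 0.26). Tmprss3, a serine protease that hair cells need, was 0.56 ± 0.41 higher in MC than in YC and its CR minus MC difference was -0.28, with neither past the threshold.

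Smpx, the gene of X-linked hearing loss that encodes a small protein of muscle and of hair cells, had the lowest adjusted p of all members. It read 13.03, 12.47 and 13.09 in YC 1 to 3, 13.53, 12.53 and 13.54 in MC 1 to 3, and 12.19, 11.73 and 12.04 in CR 1 to 3. The CR arrays were the 3 lowest of the 9, while the YC and MC arrays overlapped. Group means were 12.87 ± 0.35 in YC, 13.20 ± 0.58 in MC, 11.99 ± 0.23 in CR (SD, n = 3). CR was 2.32-fold lower than MC (-1.21 ± 0.30 SE, limma adjusted p = 0.146) and 1.84-fold lower than YC (-0.88 ± 0.30, adjusted p = 0.457). MC minus YC was 0.33 ± 0.30. The sign of CR minus MC was kept under each of 21 alternatives, from -1.55 to -0.33, the last with arrays centred on their medians. With array class as a term it was -1.47 ± 0.55 (adjusted p = 1), and within the low-median class CR minus YC 1 was -1.05.

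Smpx is named for striated muscle, and skeletal muscle markers moved the same way on the same arrays. All 25 were nominally lower in CR than in MC, with differences from -4.31 to -1.44, and 14 of them passed the threshold. The number that passed was 3 with the deposited scaling and 0 with arrays centred on their medians or array class as a term, while all 25 stayed lower. It was 1 without CR 1, 0 without CR 2, CR 3, MC 1 or MC 3, 21 without YC 1 and 24 without YC 2. Their summed signal was 318688 to 439185 in CR, 1116137 to 1630250 in MC and 786531 to 1513689 in YC. The brightest, Tnnc2, Acta1 and Atp2a1, gave CR minus MC differences of -1.81, -1.87 and -1.95 (limma adjusted p = 0.0357 for each). The Smpx difference was smaller than that of every muscle marker. The part of muscle RNA in the Smpx values was not tested.

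**Figure D4:**
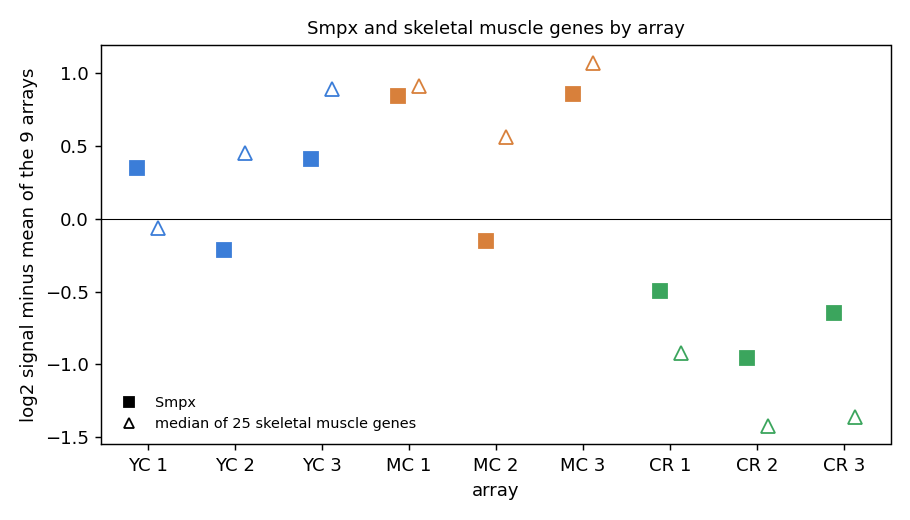
Smpx and the 25 skeletal muscle markers on each array, as log2 signal minus that gene's mean over the 9 arrays; squares are Smpx and open triangles the median of the markers. The markers' median was -0.92, -1.42 and -1.36 on CR 1 to 3 and between -0.06 and 1.07 on the other arrays, and Smpx was likewise lowest on the CR arrays.

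Tbc1d24, a regulator of vesicle traffic whose mutations cause deafness with or without seizures, was higher in CR. Its brightest probe set read 10.95, 10.35 and 10.65 in YC 1 to 3, 10.38, 10.61 and 10.75 in MC 1 to 3, and 11.26, 11.46 and 11.21 in CR 1 to 3. All CR arrays were above all others, and YC 1, the other low-median array, came next. CR was 1.66-fold higher than MC (0.73 ± 0.28 SE, limma adjusted p = 0.219) and 1.58-fold higher than YC (0.66 ± 0.28, adjusted p = 0.461). With array class as a term CR minus MC was 0.28 ± 0.46, and within the low-median class CR lay 0.36 above YC 1. Its fainter probe set gave 0.59 ± 0.61 for CR minus MC but -0.70 for CR minus YC and -1.28 for MC minus YC. Brain markers were also higher on the CR arrays, with a summed signal of 104425 to 151684 against 49168 to 54783 in MC and 43165 to 71569 in YC, and their part was not tested.

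Hgf, the hepatocyte growth factor that supports the stria and hair cells, was low in CR and on YC 1. It read 8.22, 10.67 and 9.79 in YC 1 to 3, 9.40, 9.79 and 10.30 in MC 1 to 3, and 7.93, 8.43 and 8.43 in CR 1 to 3. Every CR array lay below every MC array, but YC 1 lay within the CR range. Group means were 9.56 ± 1.24 in YC, 9.83 ± 0.45 in MC, 8.26 ± 0.29 in CR (SD, n = 3). The CR minus MC difference was -1.57 ± 0.62 SE on the log2 scale (limma adjusted p = 0.231). All CR arrays lay below the filter's minimum of 8.95, which Hgf passed through YC and MC, so the size of this difference is less certain. With array class as a term the difference turned to 0.44 ± 0.84, and within the low-median class CR and YC 1 differed by 0.04. The Hgf difference therefore did not hold its direction once array class was in the fit.

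Ccdc50, an effector of growth factor signalling, read 12.86, 12.60 and 12.47 in YC 1 to 3, 12.81, 12.49 and 12.36 in MC 1 to 3, and 12.70, 12.59 and 12.38 in CR 1 to 3. Its groups overlapped and no contrast exceeded 0.09 in size (SE 0.21). A fainter probe set of Ccdc50 gave a CR minus MC difference of -0.78 ± 0.51 and another 0.04 ± 0.46. Msrb3, a reductase that repairs oxidised methionine, was 0.47 ± 0.41 higher in MC than in YC, and Prps1, an enzyme of nucleotide synthesis, 0.33 ± 0.28 higher. Both differed by less between CR and MC, at -0.11 and -0.21.

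**Figure D5:**
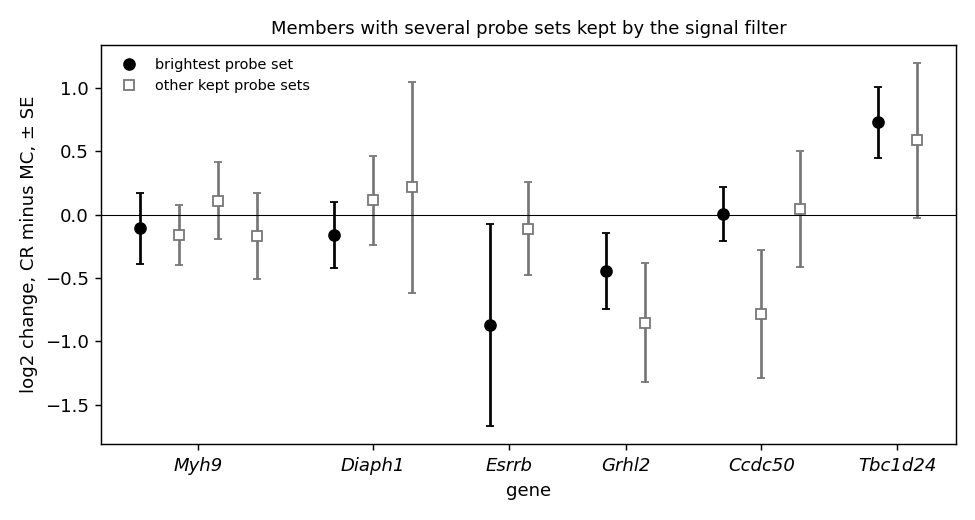
CR minus MC log2 difference, with its standard error, of every kept probe set of the 6 members with more than 1 of them; filled circles are the brightest probe set of a gene and open squares its others. The brightest and the fainter probe sets of Tbc1d24 (0.73 and 0.59) and Grhl2 (-0.45 and -0.85) had the same sign in this contrast.

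The array classes also separated some of the members. The 4 low-median arrays did not overlap the 5 high-median arrays for 7 of 34 member probe sets (20.6%), against 21.9% of all. The low-median arrays were higher for Tbc1d24 and lower for Cldn14, Hgf, Tprn, Grhl2, Whrn and Esrrb. For these 7 probe sets the CR arrays went with YC 1. CR and MC shared no array class. For every member, what belongs to restriction and what to array class cannot be told apart in the CR minus MC comparison.

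Genes of the same systems that are not members were set beside them as background. Of 65 other hereditary deafness genes, 43 were kept; 30 were nominally higher in CR than in MC and 13 lower, with a median of 0.38, and none passed the threshold. An unadjusted p under 0.05 was found for 10 of the 43 (23.3%, against 18.5% of all probe sets). Of these, 8 were higher (8.99% of all) and 2 lower (9.54% of all). Kcnj10, the potassium channel of strial intermediate cells, was 1.76 ± 0.42 higher (limma adjusted p = 0.146). Gjb6, connexin 30 of the cochlear gap junctions, was 1.06 ± 0.25 higher (adjusted p = 0.146), and Gsdme, a pore-forming gasdermin, 1.59 ± 0.37 (adjusted p = 0.145). With arrays centred on their medians 33 of the 43 were higher, beside 71.7% of all probe sets. With the table as scaled 28 were, beside 48.2% of all. With array class as a term 24 were higher and 19 lower.

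Of 26 regulators of stereocilia and cuticular plate actin, 20 were kept. None passed the threshold in CR minus MC, with 12 nominally higher and 8 lower and a median of 0.06. With arrays centred on their medians 19 of 20 were higher, beside 71.7% of all probe sets, and with array class as a term 9 were. Myh10, another non-muscle myosin, was 0.77 ± 0.30 higher (limma adjusted p = 0.221), Actb, cytoplasmic beta actin, 0.99 ± 0.40 higher (adjusted p = 0.238), and Eps8l2, a stereocilia tip protein, differed by -0.85 ± 0.35. Of 31 epithelial tight junction genes, 28 were kept, with 18 nominally higher and 10 lower in CR minus MC, a median of 0.37 and none past the threshold. With arrays centred on their medians 25 were higher (median 0.92), beside 71.7% of all probe sets (median 0.58). With array class as a term 16 were higher (median 0.06). The claudins Cldn8 (1.98 ± 0.49) and Cldn11 (1.89 ± 0.47), the latter a component of the basal cells of the stria, had limma adjusted p = 0.146 each. For age, 11 of the 28 were nominally higher and 17 lower, and the largest difference was that of Cldn3 (-1.54 ± 0.48).

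The 27 member probe sets below the filter were fitted with all 45037 and gave no call. In CR minus MC, 4 were higher and 3 lower at an unadjusted p under 0.05, against 16.6% of all probe sets in that fit. Tmie encodes a transmembrane accessory of the transduction channel, and its probe sets did not move together. The brightest probe set of Tmie read 8.75, 7.78 and 10.78 in YC 1 to 3, 9.02, 9.23 and 11.19 in MC 1 to 3, and 6.50, 6.49 and 6.59 in CR 1 to 3, a CR minus MC difference of -3.29 (limma adjusted p = 0.15). Another probe set of Tmie read 9.58, 6.85 and 7.13 in YC 1 to 3, 8.27, 6.89 and 7.60 in MC 1 to 3, and 9.66, 9.75 and 10.17 in CR 1 to 3, 2.27 higher (adjusted p = 0.214), and the remaining one was 0.87 higher. Myo3a, an actin motor of stereocilia tips, read 6.54, 7.57 and 8.75 in YC 1 to 3, 9.35, 9.05 and 9.45 in MC 1 to 3, and 7.82, 7.16 and 6.40 in CR 1 to 3, with MC above all CR arrays and a difference of -2.16 (adjusted p = 0.21). P2rx2, an ATP-gated channel, was 1.87 higher in CR than in MC (adjusted p = 0.279), and Gipc3, a scaffold of hair cells, had an MC minus YC difference of -2.16 (adjusted p = 0.995). Ildr1, a protein of tricellular junctions, was 1.92 higher in CR than in YC (adjusted p = 0.499). The CR minus MC differences of Diaph3, a formin, Espn, the actin bundler espin, and Clrn1, the Usher syndrome protein clarin-1, were 0.65, -0.46 and 0.19 (adjusted p = 0.646, 0.791 and 0.939). Signals at this level are dim and carry less precision. For the genes named here the standard errors were at least 0.67, the value of Gipc3. The lowest of the 27 was 0.49, for a probe set of Grhl2.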

How the data were processed

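Signals of 9 arrays of 1 colour each, on 45037 probe sets, were taken from the table the authors deposited. The deposited values are linear intensity signals, made with GCOS 1.3 according to the submitters' processing notes. How signals were computed, scaled and called as detected was not given in the sources used here. Biotin-labelled cRNA was made from total RNA, per the labels' protocols.

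Platform annotation gave 1 gene for 34945 probe sets, several for 932 and none here for 9160; RefSeq (GRCm38.p6) matched 34741 of the 34945 by gene ID. Because array medians differed 2.10-fold, log2(signal + 16) was quantile normalized, which understates changes of dim probe sets and removes any change shared by all. The 40th percentile of mean log2 signal was the minimum for a probe set to be kept. The 3 group means were fitted in limma 3.58.1 (R 4.3.3; lmFit, eBayes with a variance trend), with 3 contrasts and a moderated F test. Adjusted p-values are Benjamini-Hochberg over all 27022 probe sets. The scripts were tested on simulated data in which known changes were added to CR in probe sets well above the signal filter. In CR minus MC, 14% of those changed by a log2 of 1 passed the threshold, and 62% of those changed by 2. A lack of calls therefore does not show a lack of change. Precision is limited by the number of arrays, with a median SE of 0.43 over all probe sets and 0.34 over the members.

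A gene is represented by its brightest probe set. Values in every sample are given for members with an unadjusted p under 0.05 in any contrast or the F test and for the 8 brightest. From each other list at most 3 genes are named, those with the smallest p. Muscle genes are named by signal, and the hair cell markers are all named. Members below the filter were chosen for description after their values were seen. The members and lists were chosen with earlier results of these data known.

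Alternatives were other pseudocounts (1 and 64) and filters (none and the 60th percentile), centring arrays on their medians, the deposited scaling, eBayes without a trend, weights for arrays, a fit of the compared groups alone, the replicate number as a block, array class or array median in the fit, comparisons within an array class, each array left out, and the mean of a gene's kept probe sets. No scan date or batch is given in the labels.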

Additional observations from a re-analysis of the deposited data

How the results depend on the processing

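No alternative called a member in MC minus YC or CR minus YC. In CR minus MC, where no member and 25 of all probe sets passed, array weights called 4 members and 3397 of all, and the fit of only the compared groups 2 members and 1846 of all. Leaving out 1 array gave 0 to 2 members and 0 to 1040 of all, and for CR minus YC 0 to 354 of all. The count of all was 7 with the deposited scaling and 0 with arrays centred on their medians, no variance trend, array class as a term or array median as a covariate. With array weights the F test called 3 members; the weights' estimation stopped before reaching its tolerance. Whrn and Smpx were the members called without YC 2 and in the fit of only the compared groups. Array weights added Slc26a4 (adjusted p = 0.0205) and Tbc1d24 (0.0379). Centring arrays on their medians moved the members' median to -0.11 for MC minus YC, 0.46 for CR minus MC and 0.26 for CR minus YC. The medians of all probe sets were then -0.15, 0.58 and 0.39. The sign turned for Myh14 in CR minus MC with that centring (0.28), for Hgf in CR minus MC with array class as a term (0.44) and for Tbc1d24 in CR minus YC with the mean of its kept probe sets (-0.017). In CR minus MC it also turned for Triobp (0.46), Serpinb6a (0.45) and Grhl2 (0.24) with that centring, and for Grhl2 (0.49) and Marveld2 (-0.37) with array class as a term. The centred values of Myh14, Triobp, Serpinb6a and Grhl2 lay below the median of all probe sets. Myh9, Actg1, Diaph1 and Ccdc50, whose CR minus MC differences were within their SE, turned under 5 to 8 alternatives each. The causes of these changes were not tested.

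Replicate numbers did not pair the samples: deviations from the group means correlated at -0.29 to 0.27 between samples of the same number, and a sample's best match in another group had its number in 6 of 18 checks. With the replicate number as a block, 0 of all probe sets and 0 members passed in CR minus MC, and no call of a member changed in the other contrasts. Dim members limit the depth of the account, since 27 of 61 probe sets lay below the signal filter.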

Other observations

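Several members had a fainter probe set below the signal filter, and some of these differed from the kept one. In the fit without a filter, the brightest such probe set of Whrn gave a CR minus MC log2 difference of -2.62, the same sign as the kept Whrn probe set. On YC 1 it read 7.64, within its CR range of 6.58 to 8.34, beside 9.38 and 10.09 on YC 2 and YC 3. The other Whrn probe sets below the filter gave -1.04 and -0.17. The Hgf probe sets below the filter gave -0.63 and 1.27, so the probe sets of Hgf did not move together. For Tbc1d24 the probe set below the filter gave 2.06 for CR minus MC, and for Eya4 the dimmest gave 2.34 for CR minus YC. None of these passed the threshold, and they were chosen after their values were seen.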
